A study of Mus musculus with 9 samples.

Results

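The *Ucp1* locus, the stretch of mouse chromosome 8 around the gene for uncoupling protein 1, held 9 of the 66066 PPARγ peaks measured in interscapular brown adipose tissue (iBAT). Peaks were taken by position alone: a peak belonged to the locus when its midpoint lay between 70.3 kb upstream and 39.7 kb past the start site of *Ucp1*. The 9 peaks are called A to I here, in their order along the forward strand, on which *Ucp1* is read. Peaks A to E lay upstream of the gene, peak F covered its start site, peak G covered its 3′ end, and peaks H and I lay downstream.

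UCP1 is the protein of the inner mitochondrial membrane that lets protons leak back without making ATP, so that brown fat releases the energy of fatty acids as heat. PPARγ is the nuclear receptor that drives the fat cell programme. It binds DNA as a heterodimer with RXR at DR1 elements, which are direct repeats of the half-site AGGTCA with a single base between them. *Ucp1* is a classical target gene in brown fat, with a distal enhancer upstream of its start site that holds response elements for nuclear receptors and for cAMP signalling.

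PPARγ ChIP-sequencing was carried out on iBAT of male C57BL/6J mice of 10 weeks old, fed chow and kept at 22 °C under 12 h of light and 12 h of dark. No mouse carried a transgene, deletion or treatment. Tissue was taken every 3 h over a day. Times are *Zeitgeber* Times (ZT) from ZT0, when lights went on and the mice began to rest, to ZT21, and each of the 8 gave 1 library. The ChIP protocol states that a library pooled 8 mice, whereas the description of the animals gives 4 mice per time point. Each time point is thus a single pool with no replicate. The tests below use either the order of the counts of the 8 libraries in time or the spread around a curve fitted to them. Time of day cannot be told apart from any difference in preparation between the pools. Intervals on counts cover counting error only.

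Between 29572225 reads at ZT18 and 34264812 reads at ZT6 were counted in peaks, of which the 9 peaks took 0.0505%. Counts are given as normalized counts, that is TMM-normalized and scaled to the mean library total. The share of reads that fell in the strongest 10% of all peaks was 47.1%, 48.0% and 46.9% at ZT3, ZT6 and ZT9, and 44.2%, 44.3% and 45.2% at ZT15, ZT18 and ZT21. Strong peaks as a class were thus higher in the light phase. The part of this shift in the values of the strong *Ucp1* peaks was not tested beyond the other normalizations given below.

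The sequences printed first are 3 stretches on which the strongest peaks lie. All are on the forward strand of GRCm38.p6, with sequence from RefSeq. The distal enhancer region lies inside peak F at chr8:83287748-83288047, from 2600 to 2301 bases upstream of the start site, and was placed from background knowledge of mouse *Ucp1* and not from the counts. Its capitals mark a DR1 with 3 of 12 fixed bases mismatched, which reads TGGTCAAGGGTGA on the reverse strand, and an exact half-site AGGTCA further downstream.
distal enhancer region: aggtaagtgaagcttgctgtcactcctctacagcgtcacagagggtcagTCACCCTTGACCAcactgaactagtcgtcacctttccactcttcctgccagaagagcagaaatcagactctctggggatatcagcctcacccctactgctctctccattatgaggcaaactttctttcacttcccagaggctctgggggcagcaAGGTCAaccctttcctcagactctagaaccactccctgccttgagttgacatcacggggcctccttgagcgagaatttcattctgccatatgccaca
Of the central 300 bases of all peaks that could be placed on the genome, 37.5% held a DR1 at that allowance and 26.7% an exact half-site, so that neither is rare.

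The promoter of *Ucp1*, also inside peak F, is given at chr8:83290098-83290347 as the 250 bases before the start site. Its capitals mark a TATATA element 23 bases upstream of the start site and a half-site AGGTCA 9 bases upstream.
promoter: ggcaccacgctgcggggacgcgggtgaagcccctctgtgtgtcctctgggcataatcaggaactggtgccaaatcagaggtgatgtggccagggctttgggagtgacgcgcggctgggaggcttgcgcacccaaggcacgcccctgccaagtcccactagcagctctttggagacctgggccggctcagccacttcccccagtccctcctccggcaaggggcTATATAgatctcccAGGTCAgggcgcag
Of 32851 RefSeq promoters of this length, 5.25% held TATATA and 14.0% held AGGTCA on either strand. The *Ucp1* promoter was rich in G and C, with a GC content of 64.8%.

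The centre of peak D, the strongest of the upstream peaks, is given at chr8:83277340-83277639, as 300 bases around its midpoint. Where in the peak binding was strongest cannot be read from counts per peak.
centre of peak D: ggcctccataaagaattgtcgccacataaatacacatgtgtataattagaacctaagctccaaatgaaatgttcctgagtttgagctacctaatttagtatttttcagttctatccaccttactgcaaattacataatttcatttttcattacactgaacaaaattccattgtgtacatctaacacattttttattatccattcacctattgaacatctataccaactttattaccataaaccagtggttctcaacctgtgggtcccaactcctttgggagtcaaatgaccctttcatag
Nothing is in capitals there, since neither a DR1 with up to 3 mismatches nor an exact half-site was found on either strand. With a GC content of 34.7%, the centre of peak D was poorer in G and C than the promoter and the enhancer region, which had 52.0%.

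Along the locus, reads were concentrated at the gene and in the strongest upstream peak. Peak F (chr8:83282288-83294336) was 12049 bases long and ran from 8.06 kb before to 3.99 kb past the start site, so that enhancer, promoter and the first 4 exons all lay within it. Counts were given per peak only, and the enhancer region and the promoter therefore share a single value at each time point. With a mean of 10552 normalized counts over the 8 time points, peak F ranked 19 of all 66066 peaks and held 65.6% of the reads of the locus. By length it ranked 30, and at 876 normalized counts per kb of peak it ranked 2025.

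Peak D (chr8:83275942-83279037), with its midpoint 12.9 kb upstream between *Tbc1d9* and *Ucp1*, averaged 2438 normalized counts. Per kb of peak it carried 788, close to peak F, whereas all other peaks of the locus carried between 115 (peak A) and 366 (peak B). The median over all peaks was 270 normalized counts per kb, at a median length of 813 bases. Peak G (chr8:83294557-83301535) began 4.21 kb past the start site and ran through the last 2 exons of *Ucp1* to beyond the end of the gene, which spans chr8:83290348-83298456. It averaged 1629 normalized counts, and 233 per kb.

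The other upstream peaks were weaker. Peaks A (chr8:83250901-83251682) and B (chr8:83260401-83261275) lay in introns 7 and 12 of *Tbc1d9*, the neighbouring gene upstream, as numbered in NM_027758.4. Peak C (chr8:83272206-83273387) had its midpoint in the last exon of that gene, and peak E (chr8:83279389-83280806) lay between the genes, with its near edge 9.54 kb upstream of *Ucp1*. Downstream, peak H (chr8:83309599-83310533) was intergenic, with its midpoint 19.7 kb past the start site, and peak I (chr8:83316558-83317294) had its midpoint in exon 8 of 9 of *Elmod2*, a gene on the reverse strand. By nearest start site, peaks A to H belonged to *Ucp1* and peak I to *Elmod2*. Peaks A to C were thus assigned to *Ucp1* although they lay in *Tbc1d9*.

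**Figure D1:**
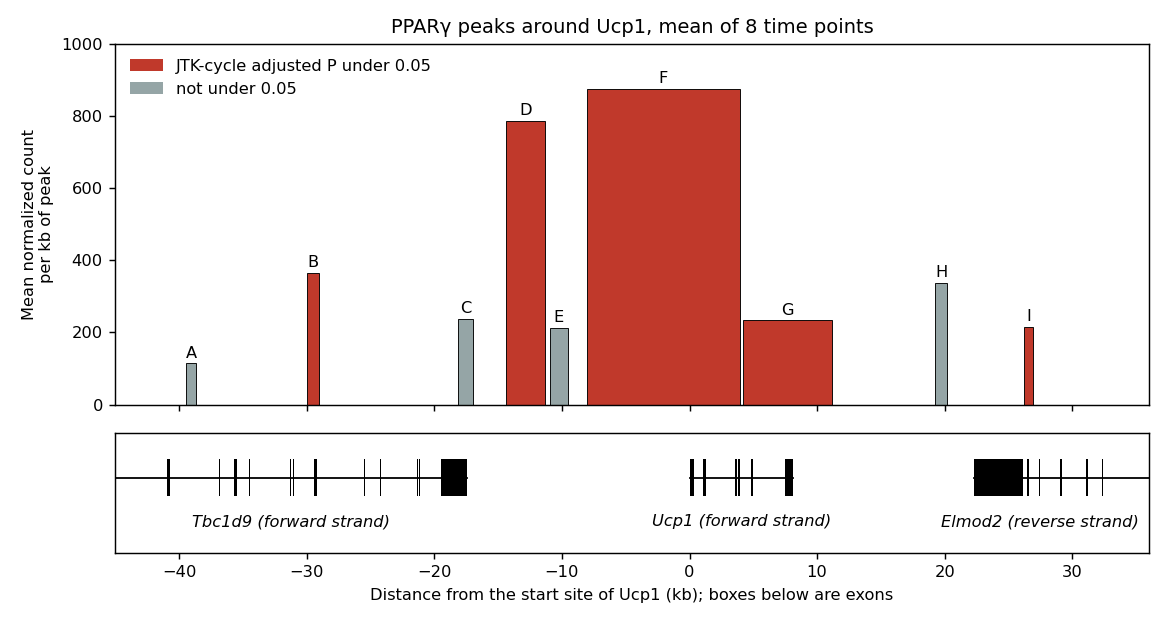
Mean normalized count per kb of peak over the 8 time points (upper panel, bars drawn at the width of each peak) against distance from the start site of *Ucp1* in kb, above the exons of the 3 genes (lower panel, black boxes). Peaks F (876 per kb) and D (788 per kb) stand above the other 7, and red bars mark the 5 peaks with a JTK-cycle adjusted P under 0.05.

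Over the day, 5 of the 9 peaks (B, D, F, G and I) oscillated by JTK-cycle at an adjusted P under 0.05, against 11.6% of all peaks. With library totals in place of TMM factors the number was 4, without peak D. A 24-h cosine fitted by edgeR's quasi-likelihood method called 4 of the 9 (D, F, G and I) at a Benjamini-Hochberg adjusted P under 0.05, against 13.4% of all peaks. JTK-cycle P values are exact and two-sided, and are corrected within a peak over 15 combinations of period (21 or 24 h) and phase. With 8 libraries the smallest value they can take is 0.000744. With a library left out this limit is higher: peak B, at 0.000744 with all 8, had 0.00595 whichever library was left out. Exact P values with a library left out are therefore not directly comparable with those of all 8. Over all peaks no Benjamini-Hochberg q of JTK-cycle fell under 0.0968, so none of the 7686 peaks called by the adjusted P passes that second correction at 0.05, while 8842 peaks pass it with the edgeR cosine.

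All 9 peaks had their highest count in the light phase. Peaks A, B, C, D, E and G were highest at ZT3, peak I at ZT6, and peaks F and H at ZT9. Of all 66066 peaks, 38.6% were highest at ZT3, ZT6 or ZT9, and 11.9% at ZT3. Of the strongest 1% of all peaks by mean count, which include peak F, 84.4% were highest at ZT3, ZT6 or ZT9. For peaks C and H these maxima differed little from other time points, as given below. The lowest counts fell at ZT18 (A, D, E and F), ZT15 (G and I), ZT12 (B and H) and ZT0 (C).

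**Figure D2:**
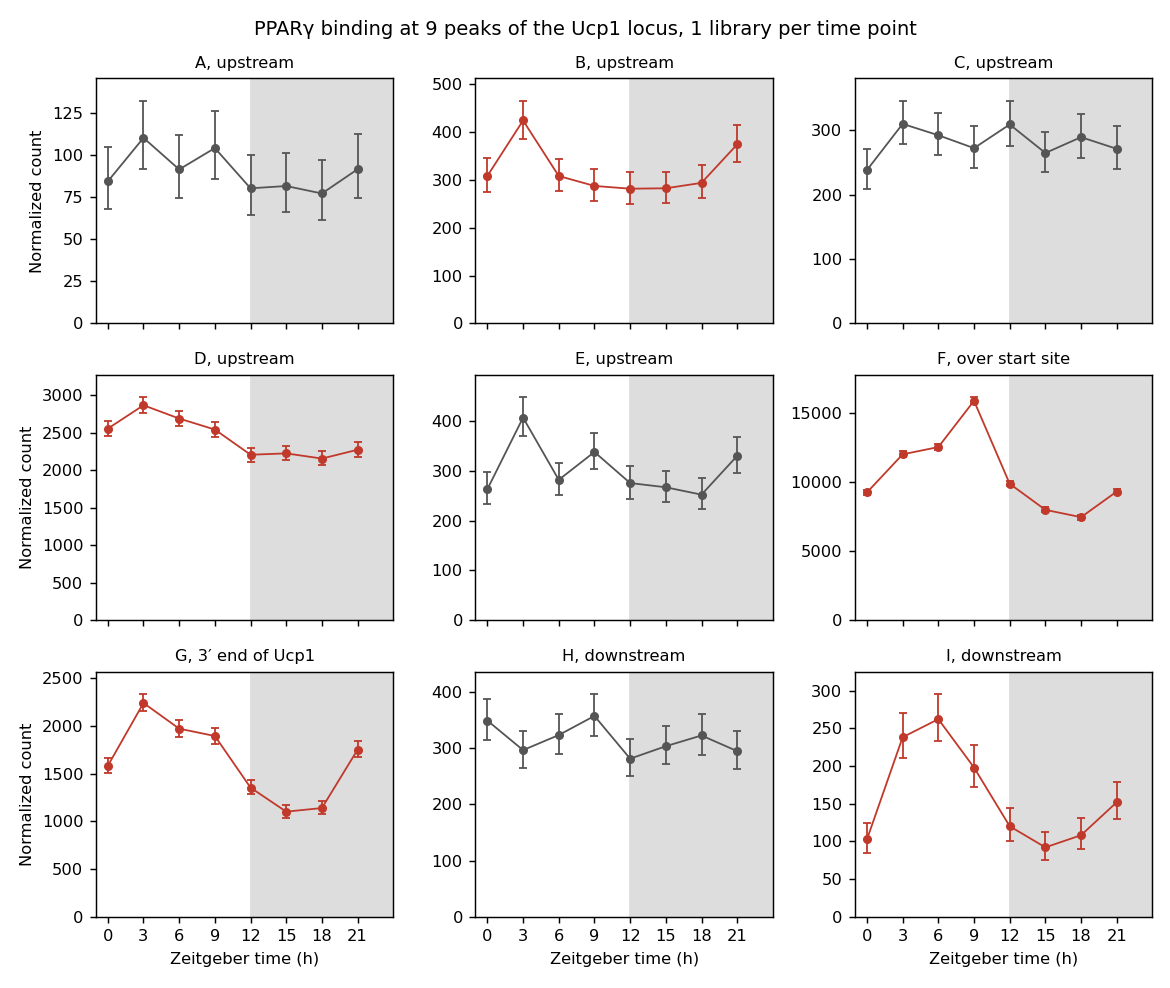
Normalized counts of the 9 peaks (vertical axes, each from 0) against *Zeitgeber* Time in h, 1 library per time point, with error bars for counting error (95% Wilson) and the dark phase in grey. Red lines are the 5 peaks with a JTK-cycle adjusted P under 0.05: F rises from 7465 at ZT18 to 15905 at ZT9, while C and H show no such course.

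Peak F, over the start site, changed 2.13-fold over the day. Its normalized counts were 9260, 12023, 12551 and 15905 from ZT0 to ZT9 and 9886, 7997, 7465 and 9326 from ZT12 to ZT21. Binding was thus high throughout the light phase from ZT3 on, highest at ZT9, back near its ZT0 level by ZT12 and lowest at ZT18. The Wilson intervals of the highest and the lowest time point, 15661 to 16153 and 7294 to 7640, lay far apart, and the interval of their ratio was 2.07 to 2.19.

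By the exact JTK-cycle test, peak F had an adjusted P of 0.00595 with a period of 21 h and a phase (LAG) of 7.5 h, and its q over all peaks was 0.128. The edgeR cosine gave an adjusted P of 0.00268, a peak-to-trough difference of 0.87 on the log2 scale and a peak time of 6.52 h. The course was not a plain cosine: the count at ZT9 lay 0.29 above the fitted curve on the log2 scale, the farthest of the 8 time points. Without ZT9 the ratio of the highest to the lowest count was 1.68, and with cyclic loess normalization it was 1.71, at an exact JTK-cycle P of 0.212. The JTK-cycle call of peak F is thus lost under cyclic loess. It was kept at an exact JTK-cycle P of 0.044 with a period of 24 h only. It was also kept, at a P of 0.00595 to 0.0417, when each library was left out in turn.

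Compared with other strong peaks, peak F moved more with all 8 libraries and TMM factors. The 660 strongest peaks (1% of all) had a median ratio of highest to lowest count of 1.35, and only 3 of them had a larger ratio than peak F. The ratio of peak F was 1.68 without ZT9 and 1.71 with cyclic loess, and its rank was not recalculated for either. As a class the 660 peaks were also higher by day: 42.1% were called by JTK-cycle and 61.8% by the edgeR cosine, 61.1% were highest at ZT6 and 8.79% at ZT9. As percent of its own mean, peak F stood at 151% at ZT9 and 70.7% at ZT18, where the median of the strongest peaks stood at 106% and 88.3%. At ZT6 peak F, at 119%, was close to their median of 114%. The maximum of peak F at ZT9 is the value of a single library, and its cosine peak time of 6.52 h lay near ZT6. These 660 peaks include peak F, and the comparison is a description with no test.

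**Figure D3:**
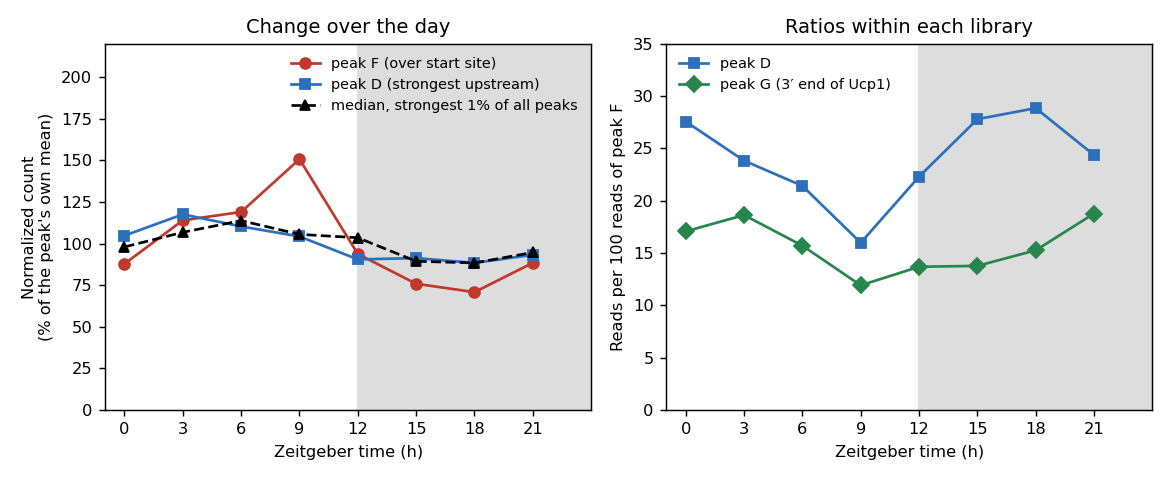
Left, normalized counts as percent of each peak's own mean against *Zeitgeber* Time in h for peaks F and D and for the median of the 660 strongest peaks. Right, reads of peaks D and G per 100 reads of peak F in the same library; both ratios are lowest at ZT9 (16.0 and 11.9), and the dark phase is in grey.

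Peak G, over the 3′ end of *Ucp1*, changed by about as much as peak F with all 8 libraries and TMM factors. Its maximum was earlier, at ZT3, and is the value of a single library. Its normalized counts were 1581, 2240, 1970 and 1894 from ZT0 to ZT9 and 1353, 1101, 1139 and 1751 from ZT12 to ZT21. Counts were highest at ZT3 and lowest at ZT15 and ZT18, and had already risen again at ZT21. The highest count was 2.03 times the lowest, with an interval of 1.89 to 2.18. This ratio was 1.79 without ZT3 and 1.87 with cyclic loess. The exact JTK-cycle test gave an adjusted P of 0.00595 (q of 0.128) with a LAG of 6 h, and the edgeR cosine an adjusted P of 0.00329, a peak-to-trough difference of 0.91 on the log2 scale and a peak time of 4.03 h.

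Peak I, in *Elmod2*, which encodes a GTPase-activating protein, had the largest relative change of the 9 and few reads. Its normalized counts were 103, 238, 262 and 198 from ZT0 to ZT9 and 120, 92.2, 108 and 152 from ZT12 to ZT21. The 3 light-phase counts from ZT3 to ZT9 stood above all others, and the count at ZT0 was near the lowest. The ratio of highest to lowest was 2.85, with a wide interval of 2.25 to 3.60 because the raw counts were only 270 at ZT6 and 95 at ZT15. Its relative amplitude by JTK-cycle, 53.9% of its mean normalized count, exceeded that of 99.8% of all peaks. Peak G (32.3%) and peak F (28.1%) exceeded 96.4% and 93.5%. For peak I the exact JTK-cycle test gave an adjusted P of 0.026 (q of 0.224) with a LAG of 6 h, and the edgeR cosine an adjusted P of 0.0134. With a period of 24 h only, the JTK-cycle P of peak I was 0.249. Leaving out ZT3, ZT6, ZT9, ZT15 or ZT21 gave 0.161, and the edgeR cosine then missed the threshold without ZT6 (0.0674) and without ZT15 (0.0605).

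Peak D, the strongest upstream peak, moved less than peaks F and G. Its normalized counts were 2554, 2866, 2689 and 2542 from ZT0 to ZT9 and 2206, 2224, 2154 and 2272 from ZT12 to ZT21. The 8 libraries fell into a higher level from ZT0 to ZT9 and a lower, nearly flat level from ZT12 to ZT21. The highest count exceeded the lowest 1.33-fold, with an interval of 1.26 to 1.41. The exact JTK-cycle test gave an adjusted P of 0.026 (q of 0.224) with a period of 24 h and a LAG of 4.5 h. The edgeR cosine gave an adjusted P of 0.0177, a peak-to-trough difference of 0.39 on the log2 scale and a peak time of 4.19 h. The call of peak D was less firm than that of F and G: the exact JTK-cycle P was 0.0826 with library totals alone, 0.212 with cyclic loess and 0.161 without ZT0, ZT3, ZT6, ZT9 or ZT21, and the edgeR cosine gave 0.092 without ZT18.

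Peak B, in an intron of *Tbc1d9*, had the smallest P that JTK-cycle can give here but no cosine. Its normalized counts were 308, 424, 308 and 287 from ZT0 to ZT9 and 281, 282, 294 and 374 from ZT12 to ZT21. Counts at ZT3 and ZT21 stood above the rest, which lay between 281 and 308. JTK-cycle uses ranks, and the order of these close values gave it an adjusted P of 0.000744 (exact, q of 0.0968) with a period of 21 h and a LAG of 3 h. Its relative amplitude was only 5.51%, below the median of 10.9% over all peaks, and the edgeR cosine gave an adjusted P of 0.162. At ZT12, the lowest time point, the Wilson interval was 250.1 to 317, which overlaps those of all time points but ZT3 and ZT21.

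The remaining 4 peaks were not called by either test. Peak A had 84.2, 110, 91.3, 104, 80.1, 81.5, 77.1 and 91.5 normalized counts from ZT0 to ZT21, with an exact JTK-cycle P of 0.467. Peak E, next to peak D, had 263, 407, 282, 338, 275, 267, 252 and 330, with higher counts at ZT3, ZT9 and ZT21 than at the time points between, and a P of 0.915 by the same exact test. Both had their highest count at ZT3 and their lowest at ZT18, as peak D did.

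Peak C, at the 3′ end of *Tbc1d9*, had 238, 310, 292, 272, 309, 265, 289 and 271 normalized counts from ZT0 to ZT21. Peak H, between *Ucp1* and *Elmod2*, had 349, 297, 324, 358, 281, 304, 323 and 295. Neither followed the light and dark phases: counts of peak C at ZT3 and ZT12 were nearly equal, and the ratio of the highest to the lowest count was 1.30 for peak C and 1.27 for peak H, below the median of 1.52 over all peaks. Their exact JTK-cycle P was 1. The edgeR cosine gave adjusted P values of 0.787 and 0.873. These P values do not show that binding at C and H was constant, as the Wilson interval of a single count was wide at this depth, for example 209.6 to 271 for peak C at ZT0.

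Grouped by phase, 4 of the 9 peaks (D, F, G and I) had higher counts at ZT3, ZT6 and ZT9 than at any of ZT15, ZT18 and ZT21, against 14.7% of all peaks. For peak F the mean was 13493 ± 2105 (SD over the 3 time points) in the light and 8262 ± 958 in the dark, a ratio of 1.63. For peak G these means were 2035 ± 182 and 1331 ± 365 (ratio of 1.53), and for peak I 233 ± 32.5 and 118 ± 31.0 (ratio of 1.98). Peak D changed least of the 4, from 2699 ± 162 to 2217 ± 59.2 (ratio of 1.22). Within each of the other 5 peaks the light and dark values overlapped.

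Peaks F and G together changed more over the day than the upstream peaks together. Peak F began 8.06 kb before the start site and held the enhancer region. Counts per peak therefore cannot place this change at the gene itself. Peaks F and G together had 17799 normalized counts at ZT9 and 8604 at ZT18, a ratio of 2.07, with an exact JTK-cycle P of 0.00595 and a LAG of 7.5 h. The 5 upstream peaks together had 4117 at ZT3 and 3067 at ZT18, a ratio of 1.34, with an exact JTK-cycle P of 0.026 and a LAG of 6 h. The sum of all 9 peaks, which went from 12102 at ZT18 to 21898 at ZT9, missed the threshold with an exact JTK-cycle P of 0.0826.

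Shares within a library do not depend on how libraries are scaled against each other. They do not remove a change over the day that depends on the strength of a peak. Peak F, with a mean of 10552 normalized counts, was stronger than peak D, with 2438. The shares were not calculated with cyclic loess. Upstream peaks took 23.4%, 21.8%, 19.5% and 16.2% of the reads of the locus at ZT0, ZT3, ZT6 and ZT9, and 21.3%, 24.7%, 25.3% and 22.5% at ZT12, ZT15, ZT18 and ZT21. The upstream share was lowest at ZT9, when peak F was highest, with an exact JTK-cycle P of 0.026 and a LAG of 19.5 h. Peak F held 65.6% of the reads of the locus, so this share falls whenever peak F rises relative to the upstream peaks. It is thus not a result separate from the course of peak F. Per 100 reads of peak F, peak D had 27.6, 23.8, 21.4 and 16.0 reads from ZT0 to ZT9 and 22.3, 27.8, 28.9 and 24.4 from ZT12 to ZT21, with the same exact P of 0.026. Both measures have the reads of peak F in the denominator, so they are not independent of each other. For both measures the P was 0.113 with a period of 24 h only and 0.161 without ZT18. Per 100 reads of peak F, peak G had between 11.9 reads at ZT9 and 18.8 at ZT21, with an exact JTK-cycle P of 0.0826.

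Some peaks of the locus rose and fell together and others did not. Over the 8 time points, Pearson's r of log2 counts had a median of 0.579 over the 36 pairs of peaks, and exceeded 0.8 in 9 pairs. Of these 9, 5 involved the weak peak A, which neither test called: its r was 0.932 with E, 0.888 with G, 0.813 with F, 0.810 with I and 0.802 with D. Peak G had an r of 0.805 with peak F, 0.870 with peak D and 0.888 with peak I, and peaks F and I had 0.815. The lowest r was -0.603, between C and H. Peaks D and F, the strongest per kb, had 0.707. All values come from the same 8 libraries and share their depth and normalization, and they are given as a description.

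DR1 elements were searched in the 9 peaks on both strands, as AGGTCA followed by any base and AGGTCA again, with up to 2 of the 12 fixed bases mismatched. They were found in 4 peaks: 4 in peak F and 1 each in peaks C, E and G, all with 2 mismatches. Of all peaks, 23.6% held such a site, and among the 33 peaks within 10% of the length of peak F the share was 84.8%, with a median of 2 sites. As many as 4 were held by 30.3% of those. The sites are printed 5′ to 3′ on the strand of the match, with the 13 bases of the match in capitals and 8 bases of flank on either side.
peak C, chr8:83272307-83272319, forward strand: gtgcaaagAGGTCCCAGGACAcaggatcc
peak E, chr8:83279885-83279897, forward strand: ccaccgaaAGCTCACAGGTGAcaccacca
peak F, chr8:83283886-83283898, reverse strand: tgtgtgtaAGGGCAAAGGACAaacatgag
peak F, chr8:83285772-83285784, reverse strand: tgcttggcAGGTTAGAGGTCGcagatctg
peak F, chr8:83290407-83290419, reverse strand: tgtggagcAGCTCAAAGGTGAgcgtccct
peak F, chr8:83294234-83294246, reverse strand: ccttcatgAGGTCATATGTTAccagctct
peak G, chr8:83300528-83300540, forward strand: cctgaataAAGTCAAGGGTCAgaaaggag
In peak F, sites lay 6450 and 4564 bases upstream of the start site, 59 bases past it in the untranslated part of exon 1, and 3886 bases past it in the coding part of exon 4. The site of peak C lay in the untranslated part of the last exon of *Tbc1d9*, and those of peaks E and G lay outside genes. Peak D held none, although 48.7% of the 1629 peaks of its length did, and neither did A, B, H and I. Of the called peaks, F and G, the longest of the locus, held a site and B, D and I did not. Among peaks of matched length, a site was held by 76.3% of the 190 for G, 20.5% for B and 18.3% for I. The split among called peaks was not separated from peak length. A match is not evidence of binding at that site, and its lack in a window says only that these letters are not there.

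Other motifs were found in some of the peaks. The E-box CACGTG, the letters read by the core clock factors, was found only in peak A, where 13.0% of peaks of that length held it. Peak F held none, against 81.8% of the 33 peaks of its length. The ROR element, AGGTCA directly preceded by AANT, was found in peak G only, against 9.47% of peaks of its length. DR4 elements, the same repeat with any 4 bases between its half-sites and up to 2 mismatches, the spacing used by thyroid hormone receptor, were found in peaks E (1), F (3) and H (1), none of them overlapping a DR1 site. Of all peaks, 14.3% held a DR4, and of peaks of matched length 18.7% did for E, 84.8% for F and 12.4% for H. No peak held the cAMP response element TGACGTCA, the EBF element (TCCC and GGGA with any 2 bases between) or the C/EBP element TTGCGCAA without mismatch, which 1.65%, 5.60% and 0.459% of all peaks held.

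To find genes whose binding followed *Ucp1*, the normalized counts of all peaks with their nearest start site at a gene were summed. For *Ucp1* this sum of 8 peaks went from 11994 at ZT18 to 21700 at ZT9. Among 7243 genes with a mean sum of at least 1000, Pearson's r of log2 sums with *Ucp1* over the 8 time points had a median of 0.206, and 181 genes (2.5%) exceeded 0.9. The 5 closest were *Ptp4a3*, a phosphatase (r of 0.987), *Acot1*, a cytosolic acyl-CoA thioesterase (0.982), *Gm7538*, a predicted gene (0.982), *Apol8* (0.980) and *Pnma1* (0.980). Each was highest at ZT9, as *Ucp1* was, with ratios of highest to lowest sum from 1.34 (*Apol8*) to 1.57 (*Acot1*), below the 1.81 of *Ucp1*. These 5 genes were picked for their high r with *Ucp1*, so the shared maximum is not a separate result. For all of them it is the value of the same single ZT9 library. The sum for *Acot1* went from 3858 at ZT18 to 6061 at ZT9.

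*Ucp1* was last set beside 18 genes of brown fat identity and thermogenesis, of which 17 had peaks. They comprised nuclear receptors and their coactivators (*Pparg*, *Ppara*, *Ppargc1a*, *Ppargc1b* and *Esrra*), regulators of brown fat identity (*Ebf2*, *Zfp516*, *Irf4* and *Prdm16*), the β3-adrenergic receptor (*Adrb3*), the deiodinase that activates thyroid hormone (*Dio2*), and genes of mitochondria, lipid handling and ion transport (*Cidea*, *Elovl3*, *Cox7a1*, *Cox8b*, *Cpt1b*, *Gk* and *Kcnk3*). No peak had its nearest start site at *Prdm16*. Of their 182 peaks, JTK-cycle called 23 (12.6%, against 11.6% of all peaks) and the edgeR cosine 32 (17.6%, against 13.4%), shares near those of all peaks.

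Taking the strongest peak of each gene, that of *Ucp1* had the largest ratio of highest to lowest count of the 18, which rests on the ZT9 library. Without ZT9 its ratio was 1.68, and 4 genes (*Kcnk3*, *Ppara*, *Ppargc1b* and *Gk*) had a larger one. Ratios in the others ran from 1.11 for *Cox8b*, a subunit of cytochrome c oxidase, to 1.95 for *Kcnk3*, a potassium channel. The *Kcnk3* peak went from 1037 normalized counts at ZT18 to 2019 at ZT6, with an exact JTK-cycle P of 0.467 and an edgeR cosine adjusted P of 0.0113. The strongest *Ppara* peak, of the gene for the receptor that drives fatty acid oxidation, went from 4301 at ZT18 to 7815 at ZT6, with an exact JTK-cycle P of 0.000744 and a LAG of 7.5 h, as for *Ucp1*. That of *Ppargc1b*, a coactivator, went from 3686 at ZT18 to 6580 at ZT6, with an exact JTK-cycle P of 0.00595 and a LAG of 6 h.

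*Cidea*, a lipid droplet protein that marks brown fat cells, had a strongest peak nearly as high as that of *Ucp1*, with a mean of 10065 normalized counts. It went from 8253 at ZT18 to 12021 at ZT6, a ratio of 1.46, with an exact JTK-cycle P of 0.0826 and an edgeR cosine adjusted P of 0.00622. Of the 17 strongest peaks, 4 were called by JTK-cycle (*Ppara*, *Ppargc1b*, *Gk* and *Cox8b*) and 8 by the edgeR cosine. Of all peaks 11.6% and 13.4% were called, and of the strongest 1% of all peaks 42.1% and 61.8%. The highest count of the 17 peaks fell at ZT6 in 12, at ZT9 in 2 (*Elovl3* and *Cox7a1*), and at ZT3 in *Cox8b*, ZT12 in *Ebf2* and ZT18 in *Zfp516*. Of all peaks 17.4% were highest at ZT6, and of the strongest 1% 61.1%, so a maximum at ZT6 is not particular to these genes. The ZT9 maximum of the *Ucp1* peak rests on a single library. The JTK-cycle LAG was 7.5 h for *Ucp1* and 7.5 or 9 h for 10 of the 17 other genes, of which JTK-cycle called only *Ppara*. For a peak that was not called, the LAG does not establish a phase. The share of all peaks with such a LAG was not calculated.

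**Figure D4:**
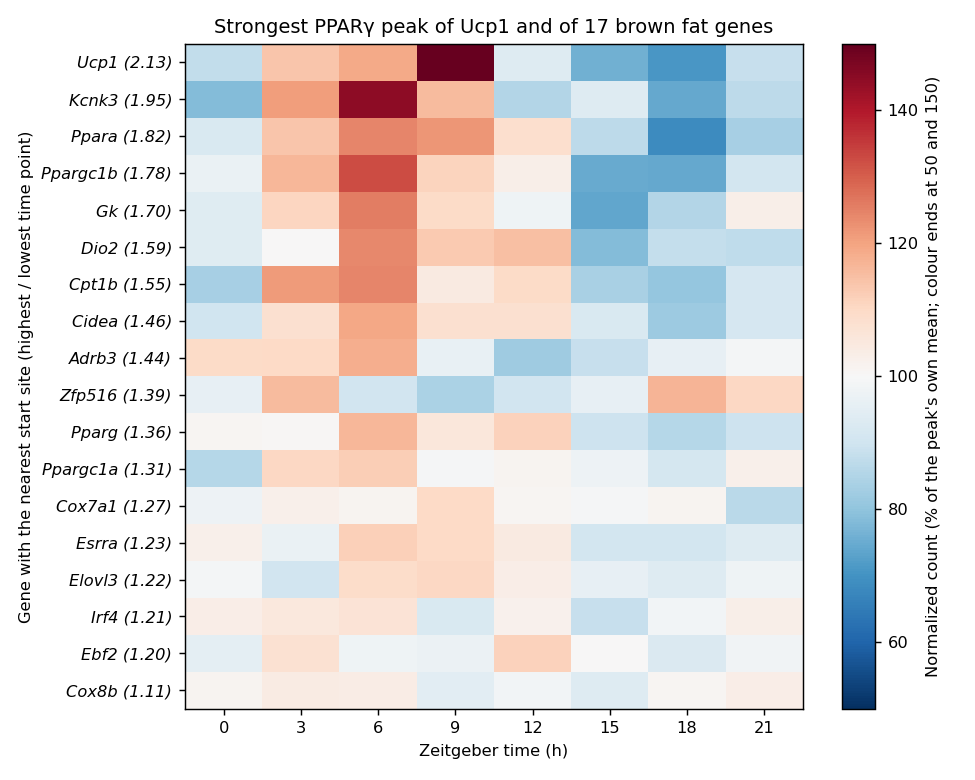
Normalized count of the strongest peak of *Ucp1* and of 17 brown fat genes as percent of each peak's own mean (colour) against *Zeitgeber* Time in h, ordered by the ratio of highest to lowest count in brackets. *Ucp1*, at the top with 2.13, is darkest at ZT9, whereas 12 of the 17 other genes are highest at ZT6.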

How the data were processed

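PPARγ ChIP-sequencing was analysed in 8 libraries of iBAT, grouped by the time point in their labels. The input library was not analysed here. According to the methods and the submitters' processing notes, the authors mapped reads to mm10 (GRCm38) with BWA 0.7.17, called peaks per library with MACS2 2.1.2, retained those significant in 6 libraries or more and used HTSeq 1.99.2 to count the reads in each. The deposited values are these raw counts, whole numbers the authors did not normalize. The handling of duplicate reads, which would change counts, is not given in the sources used here.

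From the counts, TMM factors (0.959 at ZT6 to 1.04 at ZT18) were calculated with edgeR 4.0.16 in R 4.3.3. JTK-cycle was rewritten in Python 3.11.15 with its exact null distribution, since the original package was not at hand, and run on the normalized counts of all 66066 peaks with no filter. A 24-h cosine was fitted to the counts with glmQLFit and glmQLFTest of edgeR, with cosine and sine tested together, a common dispersion of 0.0116 and 5 residual degrees of freedom, so that the spread is that around the fitted curve. Both were tested on simulated data. The interval of a ratio combines the counting errors of both counts. Alternatives were library totals, size factors of DESeq2 1.42.0, its likelihood ratio test, upper-quartile factors, cyclic loess (limma 3.58.1), other thresholds, periods and filters, and leaving out each library.

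Peaks were assigned to the nearest of 45756 RefSeq transcript starts of GRCm38.p6, which shares its coordinates with mm10. Motifs were searched in the 66062 peaks that lie on placed sequences. All peaks of the locus are described, the 5 genes with the highest r with *Ucp1* are named, and of the brown fat list counts and strongest peaks are given. The members and lists were chosen with earlier results of these data known.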

Additional observations from a re-analysis of the deposited data

How the results depend on the processing

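The number of oscillating peaks of the locus by JTK-cycle, 5 of 9, was 4 with library totals (without D) and 4 with a period of 24 h only (without I). It fell to 3 with cyclic loess (without D and F) and to 3 at an adjusted P under 0.01. When each library was left out, it ranged from 3 to 5. It was 3 without ZT3, ZT6, ZT9 or ZT21, in each case without D and I. The count by the edgeR cosine ranged from 3 to 4, but the cosine was not fitted with cyclic loess. The exact JTK-cycle P of the summed locus, 0.0826, ranged from 0.0417 (without ZT6) to 0.452. That of the upstream share, 0.026, was 0.113 with a period of 24 h only, 1 when only the upstream peak within 10 kb of the start site, peak E, was counted, and 0.00595 to 0.161 when each library was left out. The ratio of peak D to peak F gave the same values, 0.113 and 0.00595 to 0.161. The ratio of highest to lowest count of peak F, 2.13, was 2.01 with library totals, 1.71 with cyclic loess and 1.68 to 2.13 when each library was left out, lowest without ZT9. The causes were not tested.

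Peaks B and G kept their JTK-cycle calls under every alternative run, and peak F under all but cyclic loess. DESeq2's size factors and likelihood ratio test, upper-quartile factors and filters on low counts (a mean of at least 100 kept 52193 peaks, filterByExpr all 66066) left the numbers of called peaks as they were. No paired analysis was possible because each time point has 1 library. Depth limited the weak peaks: the ratio of highest to lowest count of peak A, with a mean of 90.0 normalized counts, had an interval of 1.07 to 1.91.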
